A study of Mus musculus with 18 samples.

Results

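The genes described here encode LAT and 8 proteins that meet on it after T cell receptor (TCR) engagement: Lat, Lcp2, Plcg1, Grap2, Grb2, Sos1, Vav1, Themis and Nck1. Their probes were found by the RefSeq accession printed for each probe of the array, which gave 14 probes for these 9 genes, out of 17178 genes with a named probe. Lat, Lcp2, Plcg1 and Grb2 had 1 probe each, and Grap2, Sos1, Vav1, Themis and Nck1 had 2 each. All 14 probes were well above background on all 18 arrays, and none was saturated.

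LAT is a membrane adaptor with no enzymatic activity of its own. When the TCR is engaged, the kinase ZAP70 phosphorylates tyrosines in its tail. The tyrosine at Y136 binds phospholipase C-gamma 1, which starts the calcium and diacylglycerol signals. The more distal tyrosines bind the small adaptors Grb2 and Gads (the product of Grap2), which bring the Ras exchange factor SOS1 and the scaffold SLP-76 (the product of Lcp2). SLP-76 in turn holds VAV1 and NCK. Mice in which LAT carries only the Y136F change are known for a lymphoproliferative disorder of CD4+ T cells.

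Naive CD4+ T cells (CD44low) were sorted from the spleens of C57BL/6 mice, with 3 mice in each of 6 groups and 1 array per mouse. By the sample titles, LAT KO mice were ERCre+ with a floxed and a null Lat allele (LAT f/-), Y136F mice were ERCre+ with a floxed and a mutant allele (LAT f/m), and WT mice were LAT f/- without ERCre. The design text of the series gives the WT mice as Cre ER+, so it is not settled whether WT cells also carried the recombinase, and an effect of Cre itself cannot be told apart from that of the alleles if the titles hold. Every mouse, WT included, received tamoxifen, for 1 week or for 4 weeks. By the titles, WT cells had functional LAT from a floxed allele only. Tamoxifen acts on all cells with the inducible Cre, so the alleles were not changed in T cells alone. All Y136F mice were labelled female and all 4-week LAT KO and WT mice male. Each 1-week LAT KO and WT group held 2 mice labelled female and 1 labelled male.

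By the labels, sex and the Y136F genotype therefore cannot be told apart at 4 weeks. Labelled sex also differed between 1 and 4 weeks in LAT KO and WT cells but not in Y136F cells. Comparisons of the times in LAT KO or WT cells, and changes between times of their differences from Y136F cells, therefore cannot be told apart from labelled sex. A fit with labelled sex as a term rests on the 6 arrays of the 1-week LAT KO and WT groups, which alone held both labelled sexes, and a call lost in it is not a measured effect of sex. The labelled males among these 6 were replicate 3 of LAT KO and replicate 3 of WT. Both lay on the same slide, which held no other array of these groups, so the term cannot tell labelled sex from slide. Xist and the Y-linked genes went against the labelled sex in LAT KO replicate 1 of 1 week and in LAT KO replicate 2 of 4 weeks, and both arrays enter the sex term as labelled, so results of the members in LAT KO cells at a single time are also given without these arrays. Y-linked genes and Xist were both well above background on LAT KO replicate 3 and WT replicate 3 of 1 week, labelled male and on the same slide. There Xist read -3.74 and -3.98 in scaled log2 signal. On the other arrays with Y-linked signal Xist was -9.30 to -7.03 and not well above background. The cause was not tested. The 75th percentile of spot intensity lay between 1124 and 1896 per array, and 84.2% to 97.9% of spots were well above background. The mean scaled log2 signal of 6 naive CD4 T cell markers (Cd3e, Cd4, Ccr7, Il7r, Tcf7 and Lef1) was 3.32 to 3.89 on all arrays. At 4 weeks it was lower in Y136F cells (3.32 to 3.46) than in LAT KO (3.67 to 3.68) and WT cells (3.60 to 3.85). At 1 week it was 3.34 to 3.71 in LAT KO, 3.65 to 3.89 in Y136F and 3.61 to 3.77 in WT cells. That of 4 activated or memory markers (Cd44, Itgb1, Mki67 and Gzmb) was 1.40 to 1.58 in 4-week Y136F cells and -0.94 to -0.41 in 4-week WT cells (summed level, relative to the 75th percentile, 12.6 to 14.5 and 3.21 to 4.59), and all 4 were well above background on those arrays. In a bulk sample, fewer cells of a type and less RNA per cell cannot be told apart. It was 0.33 in LAT KO replicate 1 of 1 week and at most -0.23 on the other LAT KO arrays.

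Lat and Grap2 were the members that passed the test between LAT KO and Y136F cells at 4 weeks, as given below. The 300 bases around their annotated starts are shown first to place them in the genome. They are RefSeq sequences of build GRCm38.p6 and run from 250 bases before the start to 50 after it, written 5′ to 3′ on the strand of the gene. Lat lies on the minus strand, at chr7:126369519-126369818, and Grap2 on the plus strand, at chr15:80623233-80623532. Capitals mark matches, on either strand, to GGAAG, a core of ETS factor sites, and to TGTGGT, a RUNX factor site. The motifs were chosen for their known use in T cell genes.
Lat: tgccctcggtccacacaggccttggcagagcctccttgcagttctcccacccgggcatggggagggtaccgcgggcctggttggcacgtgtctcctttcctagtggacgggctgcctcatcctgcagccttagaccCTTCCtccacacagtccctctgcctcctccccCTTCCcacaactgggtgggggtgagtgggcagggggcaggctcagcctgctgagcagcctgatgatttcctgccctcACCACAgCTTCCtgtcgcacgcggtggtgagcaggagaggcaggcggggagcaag
Grap2: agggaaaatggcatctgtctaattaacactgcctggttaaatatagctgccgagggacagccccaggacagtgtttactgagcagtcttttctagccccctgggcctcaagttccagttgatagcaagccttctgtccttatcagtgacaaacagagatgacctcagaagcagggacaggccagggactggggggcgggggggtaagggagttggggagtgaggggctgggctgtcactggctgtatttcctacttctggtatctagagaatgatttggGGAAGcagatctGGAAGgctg
The Lat window held 3 matches to GGAAG and 1 to TGTGGT, and the Grap2 window held 2 matches to GGAAG and 0 to TGTGGT, with no overlap between motifs. Of 32851 mouse promoter windows of this length, 71.4% held GGAAG, 16.8% held TGTGGT and 12.0% held both, so matches of this kind are frequent. The Lat alleles of these mice were engineered, and the window is that of the reference genome.

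Lat transcript, the targeted gene, was lowest in LAT KO cells, intermediate in WT cells and highest in Y136F cells at both times. All values are log2 processed signal minus the log2 75th percentile of the same array, called scaled log2 signal. The position of the Lat probe relative to the deleted exons is not known here, so the probe is not a direct check of deletion, and it was well above background in every LAT KO array. At 1 week the 3 LAT KO arrays read 2.32, 3.19 and 2.73, where the value of 3.19, in replicate 2, came from a spot flagged as an outlier. The 3 Y136F arrays of that time read 4.26, 4.17 and 4.32. The 3 WT arrays read 2.75, 3.47 and 3.37. Y136F arrays lay above all LAT KO and WT arrays, while LAT KO and WT arrays overlapped through the flagged spot. At 4 weeks the LAT KO arrays read 3.16, 2.62 and 2.34, the Y136F arrays 4.43, 3.86 and 3.93, and the WT arrays 3.29, 3.62 and 3.85. The 3 genotypes did not overlap at this time.

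**Figure D1:**
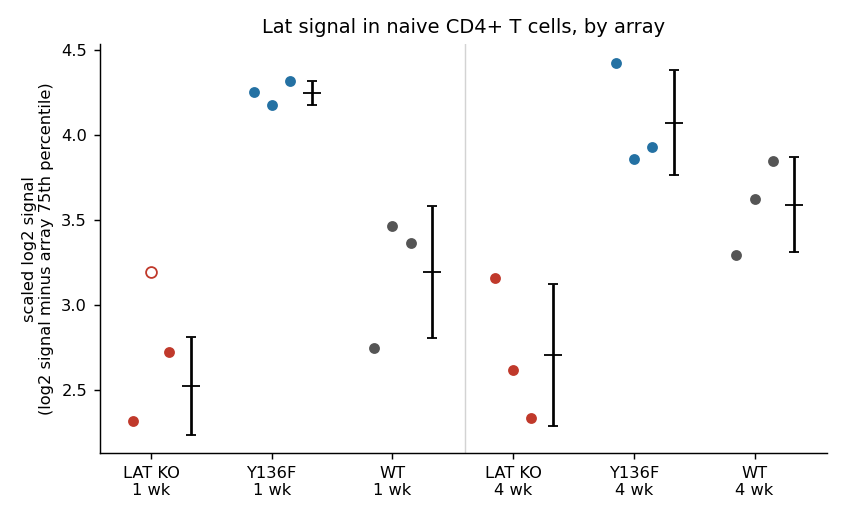
Scaled log2 signal of the Lat probe on each of the 18 arrays, by genotype and weeks of tamoxifen, with mean ± SD of the unflagged arrays at the right of each group (n = 3, and n = 2 for LAT KO at 1 week). The open point, at 3.19, is the flagged spot. Y136F arrays range between 3.86 and 4.43, above every LAT KO array, of which the highest is 3.19.

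Differences were tested with limma across all probes, and adjusted p refers to Benjamini-Hochberg adjustment over all probes of a comparison. The flagged Lat spot was left out of these fits, which left 2 arrays for LAT KO at 1 week. Lat was lower in LAT KO than in Y136F cells by 1.72 ± 0.26 (SE) on the log2 scale at 1 week (adjusted p = 0.098) and by 1.37 ± 0.23 at 4 weeks (adjusted p = 0.0025). The 4-week difference corresponds to a 2.58-fold lower signal in LAT KO cells. As the mean of both times it was -1.55 ± 0.17 (adjusted p = 0.00074), and it was past the threshold of 0.05 in all 31 alternative settings at 4 weeks and for the mean of both times. Without the 2 LAT KO arrays whose sex-linked genes went against the label, the 4-week difference was -1.32 (adjusted p = 0.010), and LAT KO minus WT was -0.47 at 1 week, with LAT KO replicate 3 as the single array of its group, and -0.84 at 4 weeks, neither past the threshold. Replicate 3 was the array with the most spots marked as outliers, 7888, against 187 to 952 on the others. At 1 week the adjusted p was 0.046 without LAT KO replicate 1 of 4 weeks and 0.035 without WT replicate 1 of 1 week, although neither array enters the difference itself.

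Against WT, the signal in LAT KO cells differed by -0.67 ± 0.26 at 1 week (adjusted p = 1), by -0.88 ± 0.23 at 4 weeks (adjusted p = 0.20) and by -0.78 ± 0.17 as the mean of both times (adjusted p = 0.087). None of these passed the threshold in the fit over all 18 arrays. The mean of both times did so when either LAT KO replicate 1 of 4 weeks (-0.89, adjusted p = 0.043) or WT replicate 1 of 1 week (-0.89, adjusted p = 0.041) was left out. In an exact two-sided permutation test with the flagged spot kept and labels exchanged within each time, the LAT KO mean was 2.73 and the WT mean 3.39 (p = 0.015, n = 6 each, 400 arrangements, smallest possible p = 0.005). At a single time, with 3 mice in each group, such a test cannot fall below 0.1. It gave p = 0.2 for LAT KO against WT at 1 week and p = 0.1 at 4 weeks (exact permutation test, n = 3 each).

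Y136F cells had more Lat signal than WT cells. The difference was 1.05 ± 0.23 at 1 week (adjusted p = 0.15) and 0.48 ± 0.23 at 4 weeks (adjusted p = 0.31), and the 4-week value was 0.31 without Y136F replicate 1 of that time and 0.81 with labelled sex as a term. As the mean of both times it was 0.77 ± 0.16, a 1.70-fold higher signal, with adjusted p = 0.024. The exact permutation test gave a mean of 4.16 in Y136F cells and 3.39 in WT cells, with p = 0.005 (n = 6 each), the smallest value it can give. The same p = 0.005 was found for LAT KO against Y136F (exact permutation, n = 6 each). Labelled sex was not balanced between Y136F and WT cells. In the fit with labelled sex, with the limits given above, the difference over both times was 0.98 and its adjusted p 0.19. The call was also lost, with adjusted p between 0.052 and 0.060, when Y136F replicate 1, 2 or 3 of 1 week, Y136F replicate 1 of 4 weeks or WT replicate 2 of 4 weeks was left out.

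Genotypes that shared a slide could be compared within it. At 1 week the values for LAT KO rest on its replicate 3. On the slide that carried both genotypes at 1 week, LAT KO minus Y136F was -1.53, and on the slides that did so at 4 weeks it was -1.59 and -1.27. Y136F minus WT was 0.89, 0.71 and 1.57 at 1 week and 0.24, 0.08 and 1.13 at 4 weeks. LAT KO minus WT was -0.64 at 1 week and -1.51 and -0.13 at 4 weeks. All of these differences had the sign of the pooled value, but the smallest of them, 0.08 and -0.13, were well under the SE of the 4-week comparison. Lat did not pass the test between 4 weeks and 1 week in any genotype: the differences were 0.18 ± 0.26 in LAT KO, -0.18 ± 0.23 in Y136F and 0.40 ± 0.23 in WT cells. The change between times of Y136F minus WT was -0.57 ± 0.33 (adjusted p = 0.71).

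Of the partners, Grap2 had the largest differences between genotypes at 4 weeks. It encodes Gads, the adaptor that joins SLP-76 to phosphorylated LAT. Its brighter probe read 1.05, 1.15 and 0.93 in LAT KO cells, 1.16, 1.07 and 1.34 in Y136F cells and 0.98, 0.72 and 1.17 in WT cells at 1 week. At 4 weeks it read 0.81, 1.25 and 1.08 in LAT KO, 0.24, 0.05 and 0.25 in Y136F, and 0.96, 0.64 and 0.76 in WT cells. The 3 genotypes overlapped at 1 week, whereas at 4 weeks all Y136F arrays lay below all other arrays of the series. The second Grap2 probe, which correlated with the first at r = 0.90 over the 18 arrays, read -1.44, -0.86 and -1.39 in 4-week LAT KO, -2.12, -2.33 and -1.90 in 4-week Y136F, and -1.71, -1.89 and -1.88 in 4-week WT cells. Here too the 4-week Y136F arrays were the lowest of that time, by a narrow margin over WT.

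At 4 weeks LAT KO cells had 0.87 ± 0.15 more Grap2 signal than Y136F cells by the first probe (adjusted p = 0.0022) and 0.89 ± 0.21 more by the second (adjusted p = 0.023), differences of 1.83-fold and 1.85-fold. Grap2 was lower in Y136F than in WT cells by 0.61 ± 0.15 by the first probe (adjusted p = 0.028), which is -0.44 relative to the median of all probes in that comparison. This median was -0.16 here and -0.04 with quantile normalization. The second probe differed by -0.29 ± 0.21 (adjusted p = 0.49). Within Y136F cells the signal fell by 1.01 ± 0.15 at 4 weeks relative to 1 week (adjusted p = 0.00048), and by 0.87 ± 0.21 by the second probe (adjusted p = 0.016). In LAT KO cells the same change was 0.00 ± 0.15 by the first probe and 0.13 ± 0.21 by the second, and in WT cells -0.17 ± 0.15 and -0.28 ± 0.21, none past the threshold. The difference of LAT KO from Y136F cells changed between the times by 1.01 ± 0.21 (adjusted p = 0.019), and by 1.00 ± 0.30 by the second probe (adjusted p = 0.12). That of Y136F from WT cells changed by -0.83 ± 0.21 and -0.59 ± 0.30, neither past the threshold (adjusted p = 0.088 and 0.61).

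Activated or memory markers were higher in 4-week Y136F cells than in any other group, as given above, and their part in the Grap2 values was not tested. Within slides at 4 weeks, LAT KO minus Y136F was 0.83 and 0.57 for the first probe, and Y136F minus WT was -0.59, -0.51 and -0.73. In the fit with labelled sex, which has no information on sex from the 4-week arrays, neither call of the first probe was kept: LAT KO minus Y136F was 0.80 (adjusted p = 0.12) and Y136F minus WT -0.53 (adjusted p = 0.44). Without the 2 LAT KO arrays of contradicted sex, LAT KO minus Y136F was 0.76 by the first probe (adjusted p = 0.014) and 0.70 by the second (adjusted p = 0.16). The call against WT was lost, with adjusted p up to 0.12, when any of the 3 Y136F arrays of 4 weeks or replicate 1 or 3 of 4-week WT was left out. The second probe's call between LAT KO and Y136F was lost without LAT KO replicate 2 (adjusted p = 0.19) or without Y136F replicate 1 or 2 of 4 weeks (0.082 and 0.13). Its call between times in Y136F cells was lost without Y136F replicate 1 or 3 of 1 week or replicate 1 or 2 of 4 weeks (adjusted p up to 0.083). The change of LAT KO minus Y136F between times lost its call without LAT KO replicate 2 of 4 weeks, Y136F replicate 1 or 3 of 1 week or Y136F replicate 2 of 4 weeks (adjusted p up to 0.075). This change and the second probe's calls were also lost with slide as a fixed term (adjusted p between 0.098 and 0.11).

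Lcp2 encodes SLP-76, the scaffold that Gads brings to LAT. At 1 week Lcp2 read 2.06, 1.41 and 1.21 in LAT KO, 1.72, 1.66 and 1.76 in Y136F and 1.83, 1.51 and 1.70 in WT cells. At 4 weeks it read 1.67, 1.60 and 1.81 in LAT KO, 2.05, 2.06 and 2.36 in Y136F and 1.98, 1.57 and 1.47 in WT cells. The 4-week Y136F arrays were thus the highest of that time, without overlap, in the direction opposite to Grap2. The difference of Y136F from WT was 0.48 ± 0.19 (adjusted p = 0.20) and that of LAT KO from Y136F -0.46 ± 0.19 (adjusted p = 0.25), so neither passed the threshold. Without the LAT KO arrays of contradicted sex the second was -0.42 ± 0.16 (adjusted p = 0.33). Over the 18 arrays Lcp2 and Grap2 signals correlated at r = -0.48, a description over arrays that share groups and slides.

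**Figure D2:**
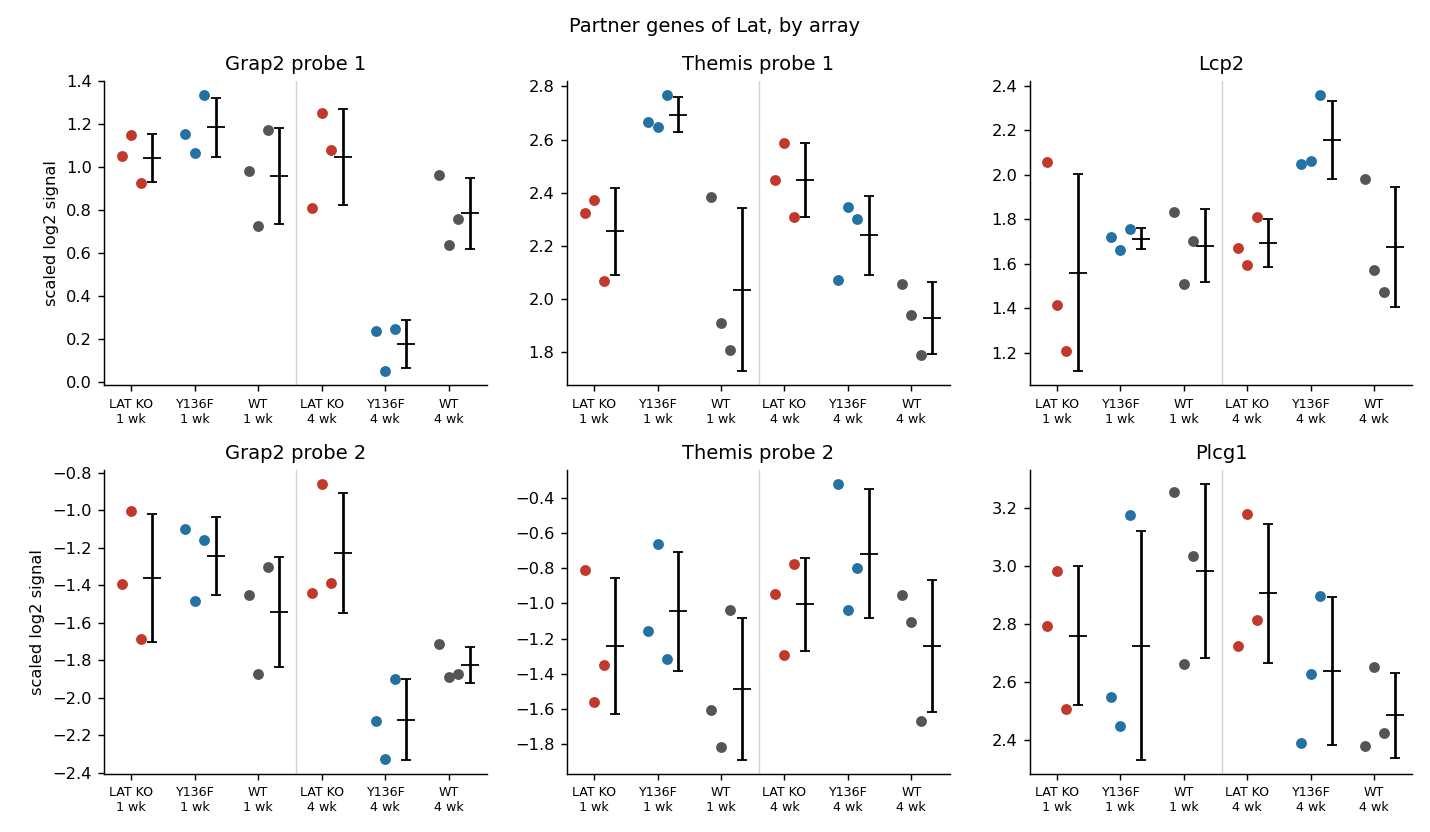
Scaled log2 signal on each array for both Grap2 probes, both Themis probes, Lcp2 and Plcg1, by genotype and weeks of tamoxifen, with mean ± SD at the right of each group (n = 3). The vertical scale differs between panels. The 4-week Y136F arrays are the lowest for the first Grap2 probe (0.05 to 0.25) and the highest of their time for Lcp2 (2.05 to 2.36).

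Plcg1 encodes phospholipase C-gamma 1, the enzyme that the Y136F change keeps from LAT. Its signal was 2.76 ± 0.24 in LAT KO, 2.73 ± 0.40 in Y136F and 2.98 ± 0.30 in WT cells at 1 week (SD, n = 3 each). At 4 weeks it was 2.91 ± 0.24 in LAT KO, 2.64 ± 0.25 in Y136F and 2.48 ± 0.15 in WT cells. No difference passed the threshold; the largest against WT was 0.42 ± 0.21 in LAT KO cells at 4 weeks (95% interval -0.02 to 0.86, adjusted p = 0.46), and it was 0.29 ± 0.23 without the LAT KO arrays of contradicted sex. For Y136F minus WT the interval was -0.70 to 0.18 at 1 week and -0.28 to 0.59 at 4 weeks. A change of Plcg1 by more than 0.86 on the log2 scale lay outside the intervals of all LAT KO and Y136F comparisons with WT at single times.

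Themis encodes a thymocyte-enriched protein that binds Grb2 and is recruited to LAT through it. The brighter Themis probe read 2.32, 2.37 and 2.07 in LAT KO, 2.67, 2.65 and 2.77 in Y136F and 2.39, 1.91 and 1.81 in WT cells at 1 week. At 4 weeks it read 2.45, 2.59 and 2.31 in LAT KO, 2.07, 2.35 and 2.30 in Y136F and 2.06, 1.94 and 1.79 in WT cells. Both mutant genotypes lay above WT at 4 weeks without overlap, and Y136F did so at 1 week. As the mean of both times Themis was 0.48 ± 0.11 higher in Y136F than in WT cells (adjusted p = 0.026), which is 0.61 relative to the median of all probes. That median depended on the scaling. For Y136F minus WT it was -0.11 at 1 week and -0.16 at 4 weeks, and -0.0063 and -0.04 with quantile normalization. The second Themis probe differed by 0.48 ± 0.19 (adjusted p = 0.23). LAT KO minus WT was 0.52 ± 0.15 at 4 weeks (adjusted p = 0.25) and 0.37 ± 0.11 over both times (adjusted p = 0.28). Without the LAT KO arrays of contradicted sex the 4-week value was 0.45 ± 0.17 (adjusted p = 0.64).

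The Themis probes correlated at only r = 0.15 over the 18 arrays, and between times in Y136F cells they moved apart (-0.45 ± 0.15 and 0.33 ± 0.27, with adjusted p = 0.071 and 0.46). Their call against WT was that of the first probe alone. It was 0.28 with labelled sex as a term (adjusted p = 0.87). It was also lost, with adjusted p between 0.056 and 0.077, when replicate 1, 2 or 3 of 1-week Y136F, replicate 2 or 3 of 4-week Y136F, replicate 2 or 3 of 1-week WT or replicate 2 or 3 of 4-week WT was left out.

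Grb2 and Sos1 form the branch toward Ras: the adaptor GRB2 carries SOS1, the exchange factor that loads Ras with GTP. Grb2 signal was 1.37 ± 0.36 in LAT KO, 1.14 ± 0.15 in Y136F and 1.41 ± 0.22 in WT cells at 1 week (SD, n = 3 each), and 1.29 ± 0.26 in LAT KO, 1.47 ± 0.20 in Y136F and 1.06 ± 0.07 in WT cells at 4 weeks. The difference of Y136F from WT was -0.27 ± 0.18 at 1 week and 0.41 ± 0.18 at 4 weeks (adjusted p = 0.86 and 0.26), and its change between the times was 0.69 ± 0.26 (adjusted p = 0.33). Sos1 was read by 2 probes, the first of which was flagged as an outlier in LAT KO replicate 3 of 1 week, where it read -1.56 and was left out of the fit. Its remaining values ran from -2.70 to -1.97 over all arrays. By the first probe the largest Sos1 difference between genotypes at a single time was 0.37 ± 0.16, in LAT KO over WT cells at 4 weeks (adjusted p = 0.42), where the second gave 0.22 ± 0.31. By the second it was -0.42 ± 0.31, in Y136F minus WT cells at 1 week (adjusted p = 0.87). The second probe was dim, at percentile 12.7 of signal among tested probes against 44 for the first. The Sos1 probes correlated at r = 0.33, so the second is a weak reading of the gene. No comparison of Grb2 or Sos1 passed the threshold. Without the LAT KO arrays of contradicted sex, LAT KO minus WT at 4 weeks was 0.33 ± 0.16 for Grb2 and 0.38 ± 0.19 for the first Sos1 probe, against 0.23 ± 0.18 and 0.37 ± 0.16 with them, and none of these passed.

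Vav1 and Nck1 act on the actin cytoskeleton, VAV1 as an exchange factor for small GTPases and NCK1 as an adaptor that binds SLP-76. The brighter Vav1 probe read 2.80, 3.24 and 2.85 in LAT KO, 2.51, 2.49 and 2.71 in Y136F and 2.63, 2.51 and 2.54 in WT cells at 4 weeks. LAT KO arrays lay above those of both other genotypes. The differences, 0.41 ± 0.16 against WT (adjusted p = 0.38) and 0.39 ± 0.16 against Y136F (adjusted p = 0.25), did not pass the threshold, and the second probe gave 0.15 ± 0.24 and 0.10 ± 0.24. The highest LAT KO value, 3.24, was that of replicate 2, whose sex-linked genes went against its label, and without the arrays of contradicted sex the differences were 0.27 ± 0.17 and 0.26 ± 0.17. For Nck1 all differences between genotypes at single times were between -0.38 and 0.31 for the brighter probe and between -0.28 and 0.03 for the other, and none passed. Without the LAT KO arrays of contradicted sex those of LAT KO cells were between -0.51 and 0.19 for the brighter probe and between -0.43 and 0.02 for the other, and none passed.

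**Figure D3:**
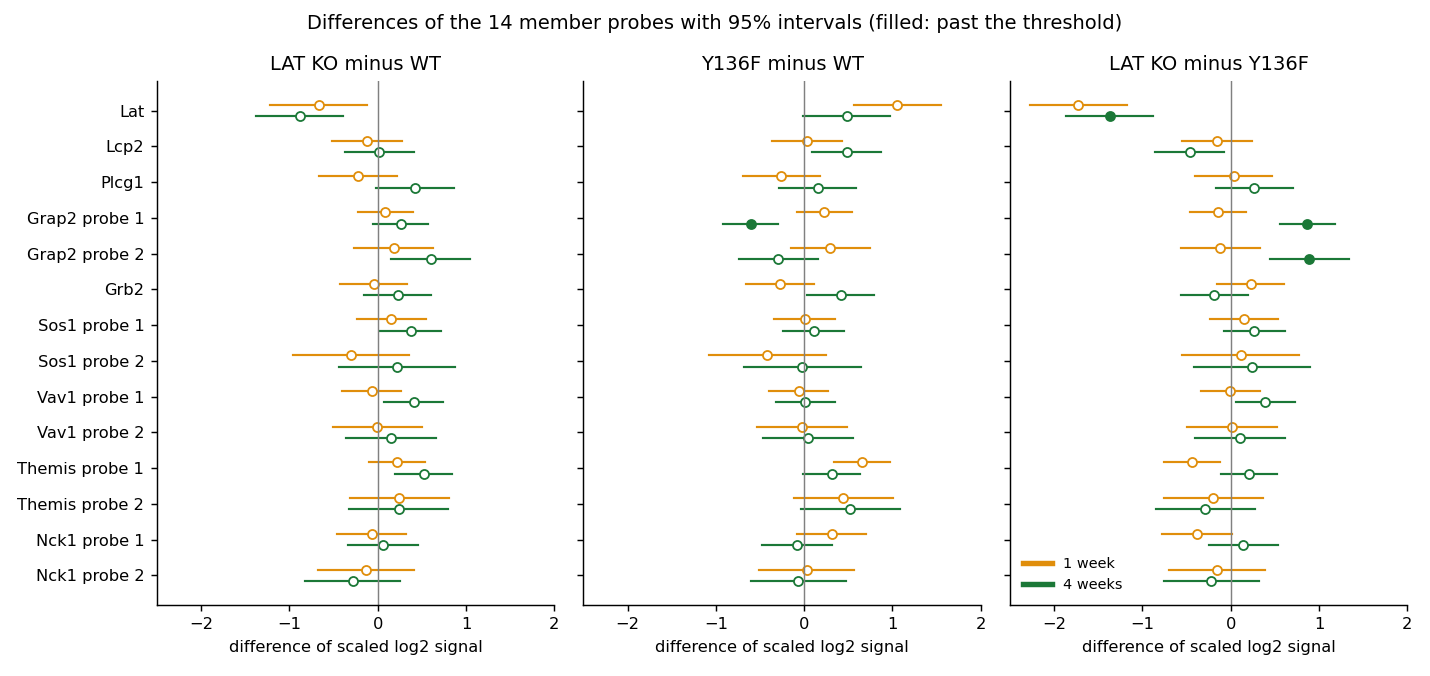
Differences of scaled log2 signal between genotypes for all 14 probes at 1 week (orange) and 4 weeks (green), with 95% intervals from the limma fit. Filled points are past the threshold of adjusted p 0.05: Lat and both Grap2 probes in LAT KO minus Y136F at 4 weeks, and the first Grap2 probe in Y136F minus WT at 4 weeks. All other points are open.

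Read over all members, few probes passed the test, and they were not spread evenly over the comparisons. The shares of all probes that passed, given beside each count, were uneven as well. Between LAT KO and WT cells 0 of the 14 probes passed at 1 week, at 4 weeks or as the mean of both times, beside 0.0150%, 0.0977% and 0.324% of all probes tested with limma. At an unadjusted p under 0.05 there were 1, 5 and 4 of the 14, or 7.14%, 35.7% and 28.6%, beside 2.90%, 11.3% and 7.35% of all probes. Between Y136F and WT cells 0 passed at 1 week, 1 at 4 weeks and 2 over both times, beside 0.0125%, 3.49% and 1.90% of all probes. Those called were the first Grap2 probe at 4 weeks, and Lat and the first Themis probe over both times. At an unadjusted p under 0.05 in limma there were 2, 3 and 3 of the 14. These are 14.3%, 21.4% and 21.4%, beside 6.46%, 16.7% and 16.2% of all probes. Between LAT KO and Y136F cells 0 passed at 1 week, 3 at 4 weeks and 1 over both times, beside 0%, 3.53% and 0.715% of all probes. The 3 at 4 weeks were Lat, the targeted gene, and both probes of Grap2, and the 1 over both times was Lat. An unadjusted p under 0.05 in limma was found for 2, 5 and 4 of the 14. These are 14.3%, 35.7% and 28.6%, beside 6.03%, 13.2% and 8.43% of all probes.

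Between 4 weeks and 1 week, 2 probes passed in Y136F cells, both of Grap2, beside 8.65% of all probes. There, 4 of the 14 (28.6%) had an unadjusted p under 0.05 in limma, beside 25.2% of all probes. In LAT KO and WT cells 0 passed, as was the case for all probes (0% each). At an unadjusted p under 0.05 there were 0 of the 14 in LAT KO cells and 2 in WT cells, where 0.566% and 19.1% of all probes lay under that value. For the change between times, 1 probe passed for LAT KO minus Y136F, beside 1.44% of all probes, and 0 for Y136F minus WT and for LAT KO minus WT, beside 0.599% and 0%. At an unadjusted p under 0.05 there were 2 of the 14 (14.3%) for Y136F minus WT and 1 (7.14%) for LAT KO minus WT, beside 9.22% and 5.28% of all probes. For LAT KO minus Y136F there were 3 (21.4%), beside 12.2%.

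The brightest probes of the 9 genes had a median difference of 0.26 for LAT KO minus WT at 4 weeks, where 8 of 9 lay above 0 and Lat was the exception, against -0.145 over all probes. With quantile normalization the median of all probes was -0.0036 in that comparison, that of the 9 genes 0.24, and 7 of 9 lay above 0. The median for Y136F minus WT was 0.03 at 1 week and 0.15 at 4 weeks, against -0.11 and -0.16 over all probes; quantile normalization moved the medians of all probes to -0.0063 and -0.04 and those of the 9 genes to 0.11 and 0.24. For LAT KO minus Y136F it was -0.14 at 1 week and 0.21 at 4 weeks, against 0.04 and 0.03, and the 1-week median turned to 0.04 in the series matrix. In Y136F cells 7 of the 9 genes were lower at 4 weeks than at 1 week (median -0.24, against 0.11 over all probes), and in WT cells likewise 7 of 9 (median -0.17, against 0.17).

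Among the partners themselves, Plcg1 and Vav1 signals moved most alike over the 18 arrays (r = 0.82), followed by Grap2 and Vav1 (r = 0.73) and Sos1 and Vav1 (r = 0.63). The flagged spots of Lat and Sos1 were left out, so the values with these genes rest on fewer arrays. Lat correlated with no partner above 0.17 and most negatively with Vav1 (r = -0.40). The genes whose signal was most like that of Lat, among 15533 genes compared over 16 to 18 arrays, were Nipsnap1 (r = 0.80), Ipp (0.77) and Tbc1d7 (0.77). For Grap2 they were Atp1b1 (0.94), Acvrl1 (0.93) and Rftn2 (0.93), for Lcp2 Nab1 (0.96), Ugdh (0.93) and Adprh (0.93), and for Themis Alkbh3 (0.91), Fbxo3 (0.90) and Cpsf2 (0.90). For Plcg1 they were Phf23 (0.91), Smarcc2 (0.91) and Dip2b (0.90), for Vav1 Marchf6, Orm2 and Exosc4 (0.92 to 0.93), and for Grb2 Celsr1, Wbp11 and Ehmt2 (0.87 to 0.88). For Sos1 they were Tmem184b, Zcchc2 and Oasl1 (0.86 to 0.88), and for Nck1 Oser1, Gtpbp8 and Tomm70a (0.90 to 0.93). The arrays share groups, slides and scaling, so these values describe the arrays only.

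The wider LAT complex was followed through 19 genes with a tested probe, among them the Tec family kinases, the HPK1 kinase, the ubiquitin ligase Cbl and the Dok adaptors. For Y136F minus WT at 4 weeks 4 of the 19 were higher, 1 was lower and 14 did not pass, with a median of 0.12 against -0.16 over all probes. Of all probes 2.57% were called higher in this comparison and 0.925% lower, and over both times, where 2 of the 19 were higher (Dok2 and Sh3bp2), 1.30% were called higher. Dok2, an adaptor that restrains Ras and TCR signals, read 2.45, 2.31 and 2.44 in 4-week Y136F cells and 1.29, 1.22 and 1.31 in WT cells, a difference of 1.13 ± 0.14 (adjusted p = 0.00025). Map4k1, which encodes HPK1, a kinase that marks SLP-76 for removal, read 1.34, 1.19 and 1.52 in Y136F and 0.73, 0.62 and 0.55 in WT cells, a difference of 0.72 ± 0.14 (adjusted p = 0.0057). Neither pair of groups overlapped, and both calls held when any 1 array was left out.

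Cd6, a co-receptor that binds SLP-76, was 0.76 ± 0.18 higher in 4-week Y136F than in WT cells (adjusted p = 0.020), and Sh3bp2, an adaptor for VAV and phospholipase C-gamma proteins, 0.94 ± 0.22 higher (adjusted p = 0.021). Pik3r1, the p85-alpha subunit of PI3 kinase, was 0.65 ± 0.16 lower (adjusted p = 0.029). The Cd6 call was lost without Y136F replicate 1 or 3 or WT replicate 2 or 3 of 4 weeks (adjusted p up to 0.11), and that of Sh3bp2 without Y136F replicate 2 or 3 or WT replicate 3 (up to 0.12). The call of Pik3r1 was lost without any 1 of the 6 arrays compared (adjusted p up to 0.11). Of 3 further Pik3r1 probes, 1 differed by -0.84 (adjusted p = 0.0079) and held when single arrays were left out. The other two differed by -0.47 and -0.70 and did not pass (adjusted p = 0.084 and 0.097). Activated or memory markers were higher in the same 4-week Y136F arrays, and labelled sex differs between the groups compared. Their part in these results was not tested. With labelled sex as a term none of these genes passed in this comparison.

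Tec, a kinase that acts on phospholipase C-gamma, was the gene of this set with the largest change over time. It read -0.89, -0.65 and -0.71 in 4-week Y136F cells, against 0.49, 1.00 and 0.64 in 1-week Y136F cells. The 4-week value was lower by 1.46 ± 0.16 (adjusted p = 5.65e-05). In LAT KO cells Tec read 0.24, 0.41 and 0.43 at 4 weeks and 0.61, 0.44 and 0.15 at 1 week, and in WT cells -0.42, -0.21 and -0.23 at 4 weeks and 0.17, -0.17 and -0.30 at 1 week. All 4-week LAT KO arrays thus lay above all 4-week WT and Y136F arrays. LAT KO minus Y136F at 4 weeks was 1.11 ± 0.16 (adjusted p = 0.00070). LAT KO minus WT was 0.65 ± 0.16 at 4 weeks, which did not pass, and 0.57 ± 0.12 as the mean of both times (adjusted p = 0.038).

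The second Tec probe gave 0.84 ± 0.14 for LAT KO minus WT at 4 weeks (adjusted p = 0.031) and 0.73 ± 0.10 over both times (adjusted p = 0.0030), and only the value over both times held when each array was left out in turn. By the brighter probe, the call over both times was lost in 14 of these 18 fits, with adjusted p up to 0.115. The second probe's 4-week call was lost without any 1 of the 6 arrays compared (adjusted p up to 0.31) and without Y136F replicate 2 of 4 weeks (0.050), and with slide as a fixed term (0.062). It was 1 of the 19 wider complex genes called for LAT KO minus WT over both times. Of all probes 0.206% were called higher in that comparison. At single times 0 of the 19 passed by the brighter probe, beside 0% and 0.0626% of all probes called higher at 1 and 4 weeks. Tec had the smallest unadjusted p of the 19 at both times in limma, 0.0071 at 1 week (0.50 ± 0.16) and 0.00098 at 4 weeks (0.65 ± 0.16), and the median at 4 weeks was 0.22 (16 of 19 above 0) against -0.145 over all probes.

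For LAT KO minus Y136F at 4 weeks 3 of the 19 were higher (Tec, Pik3r1 and Cbl), 2 lower (Dok2 and Cd6) and 14 did not pass, beside 1.15% of all probes called higher and 2.38% lower. Pik3r1 was higher by 0.84 ± 0.16 (adjusted p = 0.0050) and Dok2 lower by 0.91 ± 0.14 (adjusted p = 0.0011), and both calls, like that of Tec, held when any 1 array was left out. Cbl, a ubiquitin ligase recruited to activated receptors, was higher by 0.72 ± 0.17 (adjusted p = 0.024), and Cd6 lower by 0.80 ± 0.18 (adjusted p = 0.015). Without LAT KO replicate 2 of 4 weeks these became 0.60 (adjusted p = 0.18) and -0.76 (adjusted p = 0.083). The Cbl call was also lost without LAT KO replicate 3 or Y136F replicate 1 or 2, and the Cd6 call without Y136F replicate 1 or 3, all of 4 weeks. The Cbl call was lost in 8 of 31 alternatives in all, slide as a fixed term among them (adjusted p = 0.11). With labelled sex as a term Tec and Pik3r1 kept their calls and Dok2 (-0.58, adjusted p = 0.16), Cd6 and Cbl did not. Within Y136F cells, where 4.53% of all probes were called higher and 4.11% lower, 2 of the 19 rose at 4 weeks relative to 1 week, Dok2 by 0.92 ± 0.14 (adjusted p = 0.00069) and Cd6 by 0.73 ± 0.18 (adjusted p = 0.016). Tec and Txk, another Tec family kinase, fell, Txk by 0.85 ± 0.16 (adjusted p = 0.0023). Of these 4 only Cd6 lost its call without single arrays, namely Y136F replicate 1 or 2 of 1 week or replicate 1 or 3 of 4 weeks (adjusted p up to 0.069), and it was not called with slide as a fixed term (adjusted p = 0.16). For the change between times of LAT KO minus Y136F, 2 of the 19 were higher (Tec and Txk) and 1 lower (Dok2), beside 0.396% and 1.04% of all probes.

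**Figure D4:**
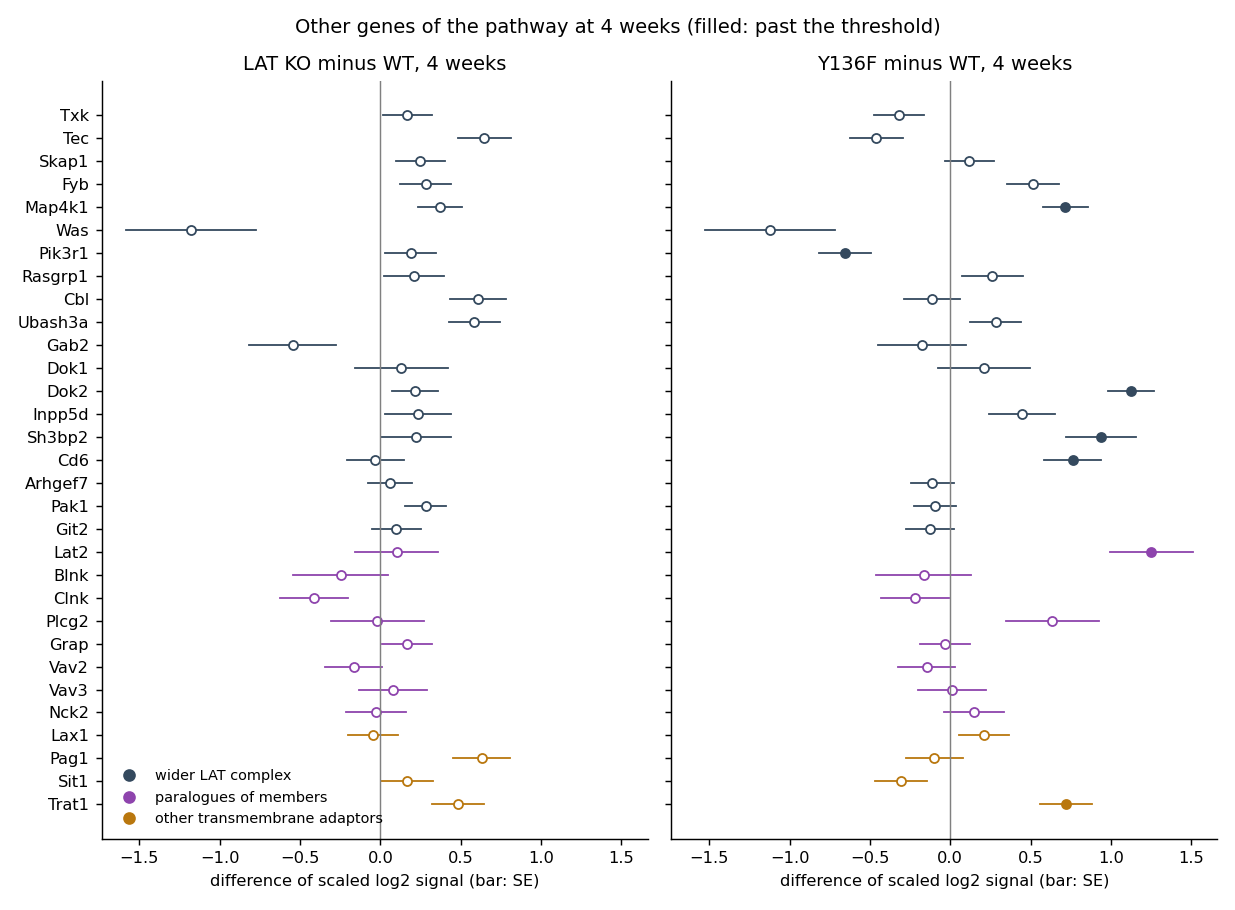
Differences of scaled log2 signal at 4 weeks for the other genes of the pathway (brightest probe of each), LAT KO minus WT at the left and Y136F minus WT at the right, with SE bars. Filled points are past the threshold. In Y136F cells Dok2 (1.13), Lat2 (1.25), Sh3bp2 (0.94), Cd6 (0.76), Map4k1 (0.72) and Trat1 (0.72) are higher and Pik3r1 (-0.65) is lower, and no point is filled for LAT KO cells.

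Of 8 paralogues of the members with a tested probe, Lat2 passed the test for Y136F minus WT at 4 weeks by its brighter probe and the other 7 did not. Of all probes 2.57% were called higher in that comparison. Lat2 encodes LAB (NTAL), a LAT-like adaptor of B cells and mast cells that activated T cells also make. It read 1.24, 1.19 and 0.70 in 4-week Y136F cells, against -0.50, 0.08 and -0.21 in WT cells, a difference of 1.25 ± 0.26 (adjusted p = 0.0086). LAT KO cells of that time read 0.18, -0.43 and -0.07, lower than Y136F cells by 1.15 ± 0.26 (adjusted p = 0.015). A second Lat2 probe gave smaller differences that did not pass, 0.53 ± 0.38 for Y136F minus WT (adjusted p = 0.49) and -0.49 ± 0.38 for LAT KO minus Y136F (adjusted p = 0.75). By the first probe the Y136F arrays did not overlap with the others. With labelled sex as a term neither call was kept (0.92 and -0.82, adjusted p = 0.42 and 0.30). The mean signal of 3 B cell markers (Cd79a, Cd79b and Ms4a1) was 0.03, -0.98 and -1.26 in these Y136F arrays and -0.92, -0.56 and -0.83 in the WT arrays. For 4 myeloid markers (Lyz2, Itgam, Csf1r and Cd14) it was -0.87, -1.51 and -1.96 in Y136F and -1.61, -1.52 and -1.16 in WT arrays. For 2 erythroid markers (Hba-a1 and Alas2) it was -1.23, -0.25 and -1.28 in Y136F and -2.03, -2.04 and -1.62 in WT arrays. The part of B cell, myeloid and erythroid markers in the Lat2 values was not tested. None of the B cell markers was below background on any array. Within Y136F cells Lat2 rose by 1.05 ± 0.26 at 4 weeks relative to 1 week (adjusted p = 0.016). The call between LAT KO and Y136F cells was lost without LAT KO replicate 2 (-0.99, adjusted p = 0.11) or Y136F replicate 1 or 2 of 4 weeks, and that over time without Y136F replicate 1 or 3 of 1 week or 1 or 2 of 4 weeks (adjusted p up to 0.087). Both were lost with slide as a fixed term (adjusted p = 0.070 and 0.16).

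The 4 other transmembrane adaptors of T cells, Lax1, Pag1, Sit1 and Trat1, bind signalling proteins through phosphorylated tyrosines as LAT does. For Y136F minus WT at 4 weeks 1 of 4 was higher and 3 did not pass, beside 2.57% of all probes called higher. Trat1, the TRIM adaptor associated with the TCR, read 2.68, 2.83 and 2.81 in Y136F and 2.03, 1.94 and 2.19 in WT cells, a difference of 0.72 ± 0.16 (adjusted p = 0.017). The call was lost without Y136F replicate 2 or 3 or WT replicate 2 of 4 weeks (adjusted p up to 0.089), and with labelled sex as a term (0.46, adjusted p = 0.56). Pag1, which anchors the inhibitory kinase CSK, was 0.73 ± 0.18 higher in LAT KO than in Y136F cells at 4 weeks (adjusted p = 0.026), and 0.66 higher without LAT KO replicate 2 (adjusted p = 0.15). Leaving out LAT KO replicate 3 or Y136F replicate 1 or 2 of that time also ended the call, which was lost in 9 of 31 alternatives in all. Within Y136F cells Sit1 and Pag1 fell by 0.67 ± 0.16 and 0.65 ± 0.18 at 4 weeks relative to 1 week, and Lax1 rose by 0.57 ± 0.16 (adjusted p = 0.016, 0.031 and 0.032). Of all probes 4.11% were called lower and 4.53% higher in that comparison. Sit1 lost its call without Y136F replicate 3 of 1 week or 2 of 4 weeks, Pag1 without Y136F replicate 1 or 3 of 1 week or 1 or 2 of 4 weeks, and Lax1 without any Y136F array except replicate 2 of 4 weeks (adjusted p up to 0.16). With slide as a fixed term none of these 3 was called. In WT cells Pag1 differed between 4 weeks and 1 week by -0.80 ± 0.18 (adjusted p = 0.098), which did not pass and is no smaller than the change in Y136F cells.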

How the data were processed

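The 18 samples were hybridised to single-colour Agilent arrays, 1 mouse per array, on 5 slides. The authors extracted spot intensity with Agilent Feature Extraction 10.5.1.1, per the file headers. Per the submitters' processing notes, Feature Extraction 10.5 and limma were used. The deposited series matrix holds log2 values, which served as an alternative.

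From the processed intensity, log2 values minus the 75th percentile of 43379 non-control spots were computed, spots flagged as outliers were dropped (7888 on the array of LAT KO replicate 3 at 1 week, 187 to 952 on the others), and each of the probes well above background on at least 3 arrays was tested with limma 3.58.1 in R 4.3.3, fitting a mean for each of the 6 groups jointly and a prior variance that follows signal, with two-sided tests and Benjamini-Hochberg adjustment over 39873 to 39929 probes, to a threshold of 0.05. Probes were named by accession from a RefSeq gene table (GRCm38.p6); the array design refers to another build, so no probe coordinates are given. On simulated data with known changes in LAT KO against WT at 1 week (39961 probes, 50 per fold size), 8 of the 1.5-fold, 19 of the 2-fold, 41 of the 4-fold and 45 of the 8-fold changes were recovered, with 3 false calls. The number of arrays limits the precision. With 1 array per mouse, the spread behind the limma p-values holds differences between mice, arrays and slides together, and it is shared over the 6 groups.

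Named are all members, genes of 3 pathway lists past the threshold, and the 3 genes most like each member. Members and lists were chosen with earlier results of these data known. Alternatives were other background corrections and scalings, the series matrix, flagged spots kept, other filters, slide, sex or replicate number in the model, other sets of arrays, and each array left out. The deviations of same-numbered arrays correlated at a mean of -0.003, with a range from -0.62 to 0.53. This mean, taken over both times, does not settle whether replicate numbers paired the mice. At 4 weeks replicate 1 of every genotype lay on the same slide, and replicate 3 of every genotype shared another. Normexp was planned with an offset of 50 and used the median spot signal. Figures were drawn with matplotlib 3.10.9, numpy 2.4.6 and pandas 2.3.3. A few genes of the pathway and marker lists are not reported here.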

Additional observations from a re-analysis of the deposited data

Results flagged for a closer look

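Results are given here where the difference between genotypes changed between 1 and 4 weeks by a test of that change itself (limma, Benjamini-Hochberg over all probes); groups of 3 arrays were not screened for single outlying arrays. The difference of LAT KO from Y136F cells changed by 1.01 for the first Grap2 probe (adjusted p = 0.019), by 1.42 and 1.28 for the 2 Tec probes (adjusted p = 0.0052 and 0.0043) and by -0.97 for Dok2 (adjusted p = 0.019). It changed by 0.90 for Txk (adjusted p = 0.0495) and by 1.34 and 0.82 for 2 further Pik3r1 probes (adjusted p = 0.0092 and 0.048). The difference of Y136F from WT cells changed by 1.35 for Dok2 (adjusted p = 0.0046) and by -1.27 and -1.07 for the Tec probes (adjusted p = 0.016 and 0.021). Without single arrays the call was lost in 15 of 18 cases for Txk, in 14 for the second of these Pik3r1 probes, in 4 each for Grap2 and for Dok2 in LAT KO minus Y136F, in 3 and 7 for the Tec probes in Y136F minus WT, and in none for the others. With slide as a fixed term those of Grap2, Txk, both Pik3r1 probes and Dok2 in LAT KO minus Y136F were not called (adjusted p between 0.090 and 0.18). Activated or memory markers were higher in 4-week than in 1-week Y136F cells (mean scaled log2 signal 1.40 to 1.58 and -0.89 to -0.52), and their part in these values was not tested. By the labels, LAT KO and WT mice were of both sexes at 1 week and all male at 4 weeks, while Y136F mice were all female. These changes therefore cannot be told apart from labelled sex.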

How the results depend on the processing

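None of the results changed direction among the named members and pathway genes past the threshold, or for Lat between genotypes, in up to 31 alternatives. The Y136F difference from WT of Lat over both times missed the threshold with the series matrix (0.76), with labelled sex as a term (0.98) and without the intensity trend (0.77); the cause was not tested. With labelled sex as a term the other member calls at 4 weeks or over both times became -0.53 and 0.80 (first Grap2 probe, Y136F minus WT and LAT KO minus Y136F), 0.95 (second Grap2 probe, LAT KO minus Y136F) and 0.28 (Themis, Y136F minus WT), none past it. Without the intensity trend the first Grap2 probe gave -0.61 and Themis 0.48 against WT, both past it no longer. The second Grap2 probe missed it for LAT KO minus Y136F with quantile normalization (0.90), the series matrix (0.82), slide as a fixed term (0.76) and without the 2 LAT KO arrays of contradicted sex (0.70). Counts of member probes called fell to 0 for Y136F minus WT at 4 weeks and over both times with labelled sex as a term or without the intensity trend, to 1 over both times with the series matrix, and to 1 for LAT KO minus Y136F at 4 weeks with labelled sex as a term.

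With each array left out in turn, Lat ranged between -0.89 and -0.68 for LAT KO minus WT over both times, between -1.93 and -1.52 for LAT KO minus Y136F at 1 week, and between 0.66 and 0.84 for Y136F minus WT over both times. Grap2 ranged between -0.68 and -0.52 (first probe, Y136F minus WT, 4 weeks) and between 0.70 and 1.00 (second probe, LAT KO minus Y136F, 4 weeks), and Themis between 0.43 and 0.57 (Y136F minus WT, both times). The counts ranged between 0 and 1 for LAT KO minus WT over both times, Y136F minus WT at 4 weeks and LAT KO minus Y136F at 1 week, between 0 and 2 for Y136F minus WT over both times, between 2 and 3 for LAT KO minus Y136F at 4 weeks and between 1 and 2 over both times. They ranged between 1 and 3 for Y136F at 4 weeks minus 1 week (1 with 1 probe per gene or slide as a fixed term, 4 with only the groups compared) and between 0 and 2 for the change between times of LAT KO minus Y136F (0 with slide, with labelled sex or without the 2 LAT KO arrays). Of 57 further results, 21 kept their call without any single array, 26 lost it with labelled sex as a term, 22 with slide as a fixed term and 6 with the replicate block. With the replicate block Lat kept its calls (-1.37 for LAT KO minus Y136F at 4 weeks); Tec over both times for LAT KO minus WT (0.57, adjusted p = 0.050) was among those lost.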
